A study of Rattus norvegicus with 6 samples.

Results

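The BCL2 family decides at the mitochondrial outer membrane whether a cell commits to apoptosis. These genes were followed in rat INS-1 cells, chosen by symbol in the deposited count table: the survival genes Bcl2, Bcl2l1 and Mcl1, the pore-forming effectors Bax and Bak1, and the BH3-only genes Bid, Bad, Bcl2l11, Bbc3 and Pmaip1. Of these 10 genes, 8 had a row that names them, among 21553 named genes in all. Mcl1 and Bbc3 had none and were not analysed here. Pmaip1 was below the count filter, so 7 members were tested.

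Survival proteins hold Bax and Bak in check, and BH3-only proteins, when induced or activated by stress, release or directly activate them. Bax and Bak then open the outer membrane, cytochrome c leaves the mitochondrion, and the caspases that dismantle the cell are activated. In beta cells this pathway is known to act in death caused by cytokines and by stress of the endoplasmic reticulum.

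RNA was sequenced from INS-SMA cells (n = 3) and from INS-MOCK cells (n = 3). INS-1 is an insulin-secreting line derived from a rat insulinoma. The INS-SMA cells carry the label SMA overexpression and received a lentivirus with a gene for alpha smooth muscle actin, a contractile actin typical of vessel walls and scar tissue. The INS-MOCK cells carry the genotype label wild type. All 6 cultures share the line, the medium and the same range of passages. The labels say neither which promoter drives the transgene, nor whether a group is 1 clone, nor whether INS-MOCK cells received a lentivirus, so effects of the actin and of the virus cannot be told apart. The replicates are described as biological, without further detail.

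The libraries held 24719503 to 39608609 counts in INS-SMA and 34471794 to 37466920 in INS-MOCK. Values are CPM, counts scaled to a common library size with TMM factors, and a gene is called when its adjusted p in edgeR's quasi-likelihood test is below 0.05. The human ACTA2 transgene was at 44302 to 56546 CPM in INS-SMA and at 4.62 to 7.14 CPM in INS-MOCK, as the labels say. Of 13363 tested genes, 3753 (28.1%) were called higher and 3606 (27.0%) lower in INS-SMA, together 55.1%, and the groups did not overlap in 65.3%. All 8 markers of the beta cell had named rows, and their summed level was 2914 to 3638 CPM in INS-SMA against 32973 to 35669 CPM in INS-MOCK, with 7 of 8 lower in edgeR's test. Gcg, the tested marker of other islet cells, was at 24.4 to 30.1 CPM in INS-SMA and 692 to 749 CPM in INS-MOCK. Of 16 markers of acinar, matrix, immune and endothelial cells, 10 had named rows. Their summed level was 6.42 to 9.55 CPM in INS-SMA and 2.01 to 3.68 CPM in INS-MOCK, with 2 of 5 tested markers higher and 0 lower in edgeR's test. Prss1 had at most 4 counts in a library. In bulk RNA, fewer cells of a type and less RNA per cell cannot be told apart, and the part of either in the results on BCL2 family genes was not tested.

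The effector genes Bax and Bak1 were higher in INS-SMA, while the survival gene Bcl2l1 stayed within a narrow interval around no change. Bcl2 had lower values in every INS-SMA library but did not pass the test. The BH3-only genes Bid, Bad and Bcl2l11 did not pass it either. Of the 7 tested members, 2 were called higher and 0 lower in edgeR's test, against a background of 28.1% and 27.0% of all tested genes, so the share called (both directions 55.1% of all genes) was not above that of other genes. At an unadjusted p below 0.05 the counts were 2 higher and 1 lower (Bcl2), against 4094 higher and 3912 lower among all 13363 tested genes. With DESeq2 the member counts were also 2 and 1, against 4371 and 3929 among all genes. The groups did not overlap in 3 of the 7, against 65.3% of all tested genes. The median log2 fold change of the 7 was 0.26, against 0.03 over all tested genes.

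**Figure D1:**
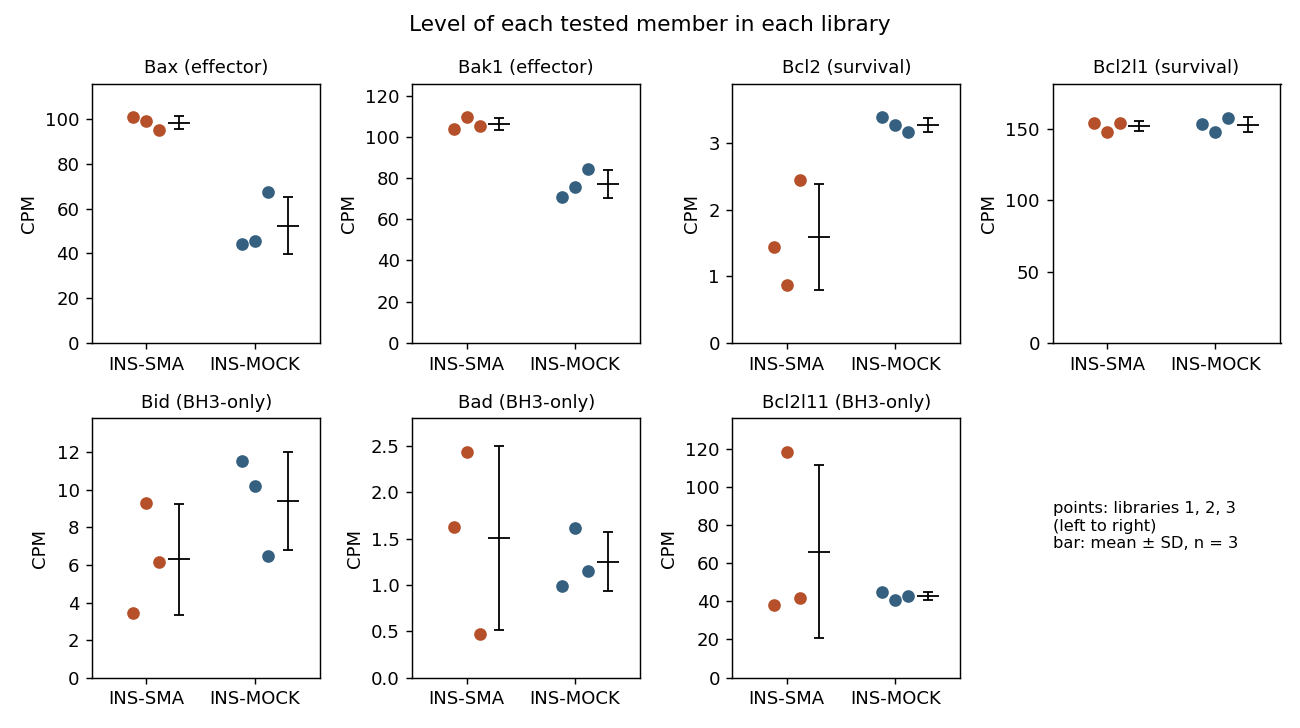
Level of each of the 7 tested members in CPM (linear axis from 0, scaled separately for each gene) in the 3 INS-SMA libraries on the left and the 3 INS-MOCK libraries on the right of each panel, with mean ± SD. The INS-SMA points of Bax and Bak1 lie above all INS-MOCK points, those of Bcl2 below, and 1 INS-SMA library stands far above the others for Bcl2l11.

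Bax encodes a cytosolic effector that moves to mitochondria and forms pores. The deposited table places it on chromosome 1 from 101451802 to 101457207, on the minus strand. It was at 100.7, 99.2 and 95.0 CPM in the INS-SMA libraries, against 44.4, 45.6 and 67.2 CPM in the INS-MOCK libraries. The groups did not overlap, and INS-MOCK replicate 3 was the highest of its group. Bax averaged 98.3 ± 2.94 CPM in INS-SMA and 52.4 ± 12.8 CPM in INS-MOCK (SD, n = 3 each). The log2 fold change was 0.91 (SE 0.17, 95% interval 0.47 to 1.34, edgeR adjusted p = 0.00639), a 1.88-fold rise. Without INS-MOCK replicate 3 it was 1.13 (edgeR adjusted p = 0.000308), and it passed in all 6 fits that left out 1 library.

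Of the 2 transcript rows of Bax, 1 was called higher, in a fit of transcript rows where 15.6% of 23402 tested rows were called higher. The row ENSRNOT00000087061 held 1120, 1407 and 1617 counts in INS-SMA and 379, 317 and 710 counts in INS-MOCK. It rose by 1.67 in log2 units, with an SE of 0.33 (edgeR adjusted p = 0.0156). The other row, ENSRNOT00000028328, held 556, 754 and 826 counts in INS-SMA and 695, 701 and 862 counts in INS-MOCK. Its change on the log2 scale was 0.02 (SE 0.13, edgeR adjusted p = 0.93). The first row made up 66.0% ± 0.87 of the counts of Bax in INS-SMA and 37.2% ± 7.21 in INS-MOCK (SD, n = 3 each). How reads shared by both rows were divided is not given in the sources used here, and the difference between the rows' fold changes was not tested.

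Bak1 encodes the effector that resides in the mitochondrial outer membrane. It lies on chromosome 20 from 5609625 to 5618260, on the minus strand. It was at 103.9, 109.4 and 105.5 CPM in INS-SMA, against 71.0, 75.8 and 84.3 CPM in INS-MOCK. Every INS-SMA library lay above every INS-MOCK library. The means were 106.2 ± 2.83 CPM in INS-SMA and 77.0 ± 6.77 CPM in INS-MOCK (SD, n = 3 each). The log2 fold change was 0.46 (SE 0.07, 95% interval 0.28 to 0.65, edgeR adjusted p = 0.00284), a 1.38-fold rise. The difference between the changes of Bak1 and Bax was not tested.

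Of the 5 transcript rows of Bak1, 2 were called higher. The most abundant row, ENSRNOG00000000485.3, held 1231, 1691 and 1900 counts in INS-SMA and 910, 948 and 1085 counts in INS-MOCK. It rose by 0.81 in log2 units, with an SE of 0.11 (edgeR adjusted p = 0.00417), and made up 70.7% ± 0.60 of Bak1 counts in INS-SMA and 54.7% ± 1.57 in INS-MOCK. The sparse row ENSRNOT00000092326 had 26, 36 and 38 counts in INS-SMA and 9, 4 and 8 counts in INS-MOCK (log2 fold change 2.35, edgeR adjusted p = 0.00744). The row ENSRNOT00000000576 did not pass, with 110, 293 and 204 counts in INS-SMA against 293, 334 and 360 in INS-MOCK.

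**Figure D2:**
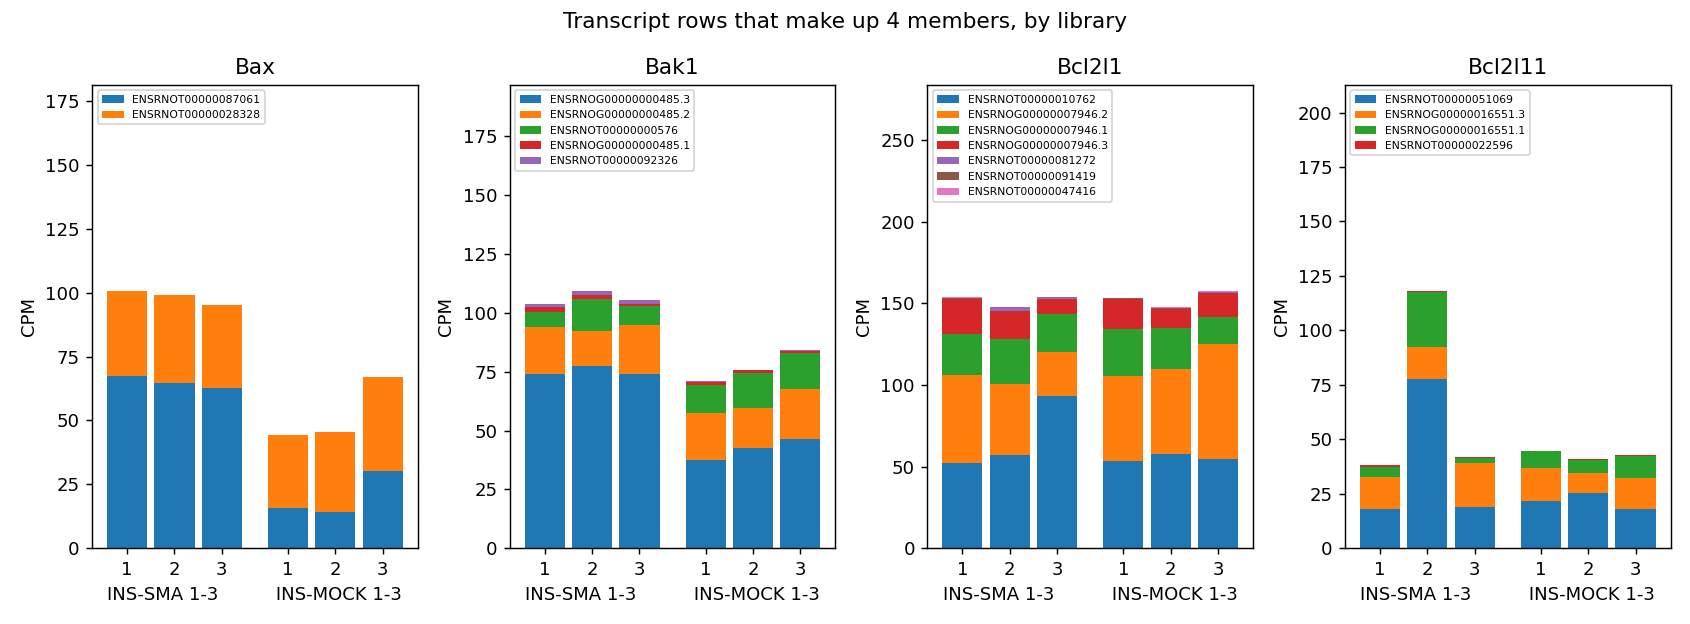
Transcript rows of Bax, Bak1, Bcl2l1 and Bcl2l11 stacked by library, in CPM (linear axis from 0), with INS-SMA libraries 1 to 3 on the left and INS-MOCK libraries 1 to 3 on the right. In Bax and Bak1 the blue row at the bottom is taller in every INS-SMA library; in Bcl2l1 the rows vary while the stacks reach 148 to 158 CPM in all 6 libraries.

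Promoters of 8 of the 10 members were found in the RefSeq table for build GRCr8, each reaching from 250 bases before a transcription start to 50 after it. Bax and Bbc3 had no entry. Shown are Bak1, the called effector, Bcl2, the survival gene whose groups did not overlap, and Bcl2l11, the BH3-only gene with the widest relative spread in INS-SMA. Capitals mark matches, on either strand, to motifs of factors in the list of regulators described below: the IRF core AANNGAAA, the longer interferon element, by name, which contains it, the FOXO motif GTAAACA, the ATF4 and CHOP element TGATGNAA, the cyclic AMP element TGACGTCA, the STAT motif TTCNNNGAA, and the NF-kappaB element by name.
Bak1, chr20:5110925-5111224, minus strand: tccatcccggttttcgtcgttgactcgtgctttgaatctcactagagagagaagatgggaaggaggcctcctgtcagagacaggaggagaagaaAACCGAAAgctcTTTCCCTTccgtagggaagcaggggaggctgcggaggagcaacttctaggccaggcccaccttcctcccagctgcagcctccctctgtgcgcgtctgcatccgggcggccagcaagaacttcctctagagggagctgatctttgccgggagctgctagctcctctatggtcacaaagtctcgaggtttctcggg
Bcl2, chr13:23366851-23367150, minus strand: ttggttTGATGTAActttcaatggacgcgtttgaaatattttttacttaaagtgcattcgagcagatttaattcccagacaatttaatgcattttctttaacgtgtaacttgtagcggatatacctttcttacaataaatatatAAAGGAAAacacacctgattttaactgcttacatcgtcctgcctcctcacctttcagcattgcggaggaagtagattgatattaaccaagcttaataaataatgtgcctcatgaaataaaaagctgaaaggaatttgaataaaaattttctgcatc
Bcl2l11, chr3:135819792-135820091, plus strand: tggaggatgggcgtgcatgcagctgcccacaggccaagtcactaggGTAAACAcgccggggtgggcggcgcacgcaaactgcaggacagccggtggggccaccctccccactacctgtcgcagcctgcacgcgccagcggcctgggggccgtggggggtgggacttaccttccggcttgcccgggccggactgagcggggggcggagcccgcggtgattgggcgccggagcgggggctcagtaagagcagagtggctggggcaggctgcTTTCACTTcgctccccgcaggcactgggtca
The Bak1 window held 2 matches to the IRF core, AACCGAAA and TTTCCCTT. The Bcl2 window held 1 IRF core match and 1 match to the ATF4 and CHOP element, and the Bcl2l11 window held 1 FOXO match and 1 IRF core match. The IRF core is short and occurs in 26.4% of 33469 promoter windows of 300 bases, whereas FOXO occurs in 3.78% and the ATF4 and CHOP element in 3.98%. None of the 3 windows held the longer interferon element, the cyclic AMP element, or the STAT or NF-kappaB letters, which occur in 3.92%, 1.83%, 8.87% and 4.18% of windows. Among members not shown, windows of Bcl2l1 and Bad held STAT letters, and those of Mcl1 and Pmaip1 held NF-kappaB letters. Windows of Bcl2l1 also held the IRF core and the ATF4 and CHOP element, and that of Bad the FOXO motif. A match describes letters only.

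Bcl2 encodes the founding survival protein of the family and lies on chromosome 13 from 26605426 to 26769374, on the minus strand. It held 24, 19 and 63 counts in INS-SMA, against 82, 73 and 74 counts in INS-MOCK. In CPM these were 1.44, 0.87 and 2.45 in INS-SMA and 3.39, 3.27 and 3.16 in INS-MOCK. All INS-SMA libraries lay below all INS-MOCK libraries, with INS-SMA replicate 3 nearest to them. The log2 fold change was -1.04 (SE 0.40, 95% interval -2.05 to -0.03, edgeR adjusted p = 0.0771). Without INS-SMA replicate 3 it was -1.50 and passed (edgeR adjusted p = 0.0187), and it passed with DESeq2 (adjusted p = 0.0311), while over 16 other settings its adjusted p lay between 0.0187 and 0.28.

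Bcl2l1 encodes the survival protein Bcl-xL and, by splicing, a shorter form that promotes death. It lies on chromosome 3 from 148259596 to 148313810, on the minus strand. It was at 153.9, 147.9 and 154.0 CPM in INS-SMA and at 153.3, 147.6 and 157.7 CPM in INS-MOCK. The ranges of both groups nearly coincided, and the log2 fold change was -0.01 (SE 0.04, edgeR adjusted p = 0.87). Its 95% interval, -0.11 to 0.09, does not reach the size of the rise of Bak1. The spread of the gene sum was 2.28% of the mean in INS-SMA and 3.30% in INS-MOCK.

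Several of its 7 transcript rows varied more between libraries than their sum. The most abundant row, ENSRNOT00000010762, held 866, 1248 and 2400 counts in INS-SMA and 1290, 1294 and 1286 counts in INS-MOCK. In CPM, which corrects for library size, its spread in INS-SMA was 33.7% of the mean. The row ENSRNOG00000007946.2 held 899, 945 and 686 counts in INS-SMA, against 1269, 1159 and 1645 in INS-MOCK (log2 fold change -0.52, edgeR adjusted p = 0.26). INS-SMA replicate 3 was highest in the first row and lowest in the second. None of the rows of Bcl2l1 that were tested passed in edgeR's test, and the files do not say which rows encode which splice form. LOC108350502 overlaps Bcl2l1 on the opposite strand by 933 bases. It was at 43.7 ± 1.68 CPM in INS-SMA and 100.1 ± 9.45 CPM in INS-MOCK (SD, n = 3 each; log2 fold change -1.19, edgeR adjusted p = 0.000107). The strand setting of the counting is not given, so reads of the shared bases cannot be told apart.

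Bcl2l11 encodes Bim, a BH3-only protein that binds all main survival proteins and is known from mouse and rat beta cell studies for its part in their death. It lies on chromosome 3 from 120726906 to 120764192, on the plus strand. It was at 38.1, 118.2 and 41.8 CPM in INS-SMA, against 44.8, 40.8 and 42.9 CPM in INS-MOCK. INS-SMA replicate 2 stood above all other libraries, and the other INS-SMA libraries lay at or near the INS-MOCK range. The log2 fold change was 0.62 (SE 0.47, 95% interval -0.54 to 1.79, edgeR adjusted p = 0.31). Without INS-SMA replicate 2 it was -0.10 (edgeR adjusted p = 0.39), so the direction rests on that library.

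The high value of that library was in 2 of the 4 rows. The row ENSRNOT00000051069 held 301, 1695 and 484 counts in INS-SMA and 527, 565 and 424 in INS-MOCK. The row ENSRNOG00000016551.1 held 81, 559 and 63 counts in INS-SMA and 187, 130 and 239 in INS-MOCK. The row ENSRNOG00000016551.3, with 240, 314 and 521 counts in INS-SMA and 366, 206 and 332 in INS-MOCK, was not highest in that library.

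Bid encodes the protein that caspase-8 cleaves to pass a death receptor signal to mitochondria. It lies on chromosome 4 from 153442218 to 153465203, on the minus strand, and has 1 row. It was at 3.42, 9.31 and 6.14 CPM in INS-SMA and at 11.5, 10.2 and 6.50 CPM in INS-MOCK. The groups overlapped, and the log2 fold change was -0.58 (SE 0.42, 95% interval -1.63 to 0.48, edgeR adjusted p = 0.30).

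Bad encodes a BH3-only protein that growth factor signalling keeps inactive by phosphorylation. It lies on chromosome 1 from 222198534 to 222207453, on the plus strand, and also has 1 row. It held only 27, 53 and 12 counts in INS-SMA and 24, 36 and 27 counts in INS-MOCK. The groups overlapped, and the log2 fold change was 0.26 (SE 0.61, 95% interval -1.26 to 1.79, edgeR adjusted p = 0.75). This interval includes the log2 fold changes of both Bax and Bak1. Pmaip1, which encodes the BH3-only protein Noxa, lies on chromosome 18 from 62174670 to 62181102. It had 0, 3 and 0 counts in INS-SMA and 0 in each INS-MOCK library, where 3 counts correspond to 0.117 to 0.180 CPM.

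The spread between replicates separated the members. The biological coefficient of variation in the fit was 0.12 for Bcl2l1, 0.14 for Bak1 and 0.20 for Bax, below the median of 0.27 over all tested genes. It was 0.40 for Bcl2, 0.42 for Bcl2l11, 0.44 for Bid and 0.54 for Bad, above that median. This coefficient pools the groups, whose SDs, from 3 libraries each, differed for several members. Whether the groups differ in spread was not tested. As a share of the mean, the SD was 50.3% in INS-SMA and 3.42% in INS-MOCK for Bcl2, and 68.4% and 4.74% for Bcl2l11. The order was reversed for Bax, at 3.00% and 24.5%, and for Bak1, at 2.67% and 8.79%.

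Death and survival members were also set against each other within each library. These ratios are of raw counts, so they depend on transcript length and compare libraries only. The ratio of Bax to Bcl2 was 69.8, 114 and 38.8 in INS-SMA, against 13.1, 13.9 and 21.2 in INS-MOCK. The groups did not overlap, as for each gene alone, and the mean was 4.60-fold higher in INS-SMA (74.1 ± 37.7 against 16.1 ± 4.48 in INS-MOCK, SD). Bcl2, the divisor, held only 24, 19 and 63 counts in INS-SMA and did not pass the test. The ratio of Bax to Bcl2l1, chosen after the values were seen, was 0.654, 0.670 and 0.617 in INS-SMA and 0.289, 0.309 and 0.426 in INS-MOCK. That of Bak1 to Bcl2l1, also chosen then, was 0.675, 0.739 and 0.685 in INS-SMA and 0.463, 0.513 and 0.535 in INS-MOCK. Both separated the groups, as Bax and Bak1 did alone. Bcl2l1 was nearly constant, so these ratios add nothing to the results of those genes. The ratio of Bcl2l11 to Bcl2l1 was 0.248, 0.799 and 0.272 in INS-SMA and 0.293, 0.276 and 0.272 in INS-MOCK, so the groups overlapped and INS-SMA replicate 2 stood apart. No test was made on the ratios.

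Among the 12 other family genes listed, 10 had named rows and 8 were tested, of which 1 was called higher and 2 lower in edgeR's test, shares no higher than the 28.1% and 27.0% of all tested genes. Bmf, a BH3-only gene whose protein is tied to the cytoskeleton in healthy cells, held 118, 127 and 170 counts in INS-SMA and 6, 16 and 2 counts in INS-MOCK. It rose by 4.20 in log2 units, with an SE of 0.74 (edgeR adjusted p = 0.00456), the largest value among the tested family genes. Without INS-MOCK replicate 2, its highest INS-MOCK library, the log2 fold change was 5.23, and over all fits that left out 1 library it ranged from 3.75 to 5.23, called in each. Bnip3, which encodes a mitochondrial protein known for mitophagy under hypoxia, fell to 179.5 ± 8.24 CPM in INS-SMA, against 329.6 ± 24.6 CPM in INS-MOCK (log2 fold change -0.88, edgeR adjusted p = 0.000161). Bok, an effector-like gene, fell to 10.8 ± 0.96 CPM in INS-SMA, against 16.1 ± 1.97 CPM in INS-MOCK (log2 fold change -0.58, edgeR adjusted p = 0.0173; 0.0549 without INS-SMA replicate 2).

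Bcl2l2, which encodes the survival protein Bcl-w, was at 111.0 ± 5.93 CPM in INS-SMA and 116.3 ± 10.1 CPM in INS-MOCK and did not pass (log2 fold change -0.07, edgeR adjusted p = 0.51). The survival gene Bcl2a1, a known NF-kappaB target, was below the count filter with 6, 8 and 8 counts in INS-SMA and 0 in each INS-MOCK library. The median log2 fold change of the 8 tested genes was -0.09.

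**Figure D3:**
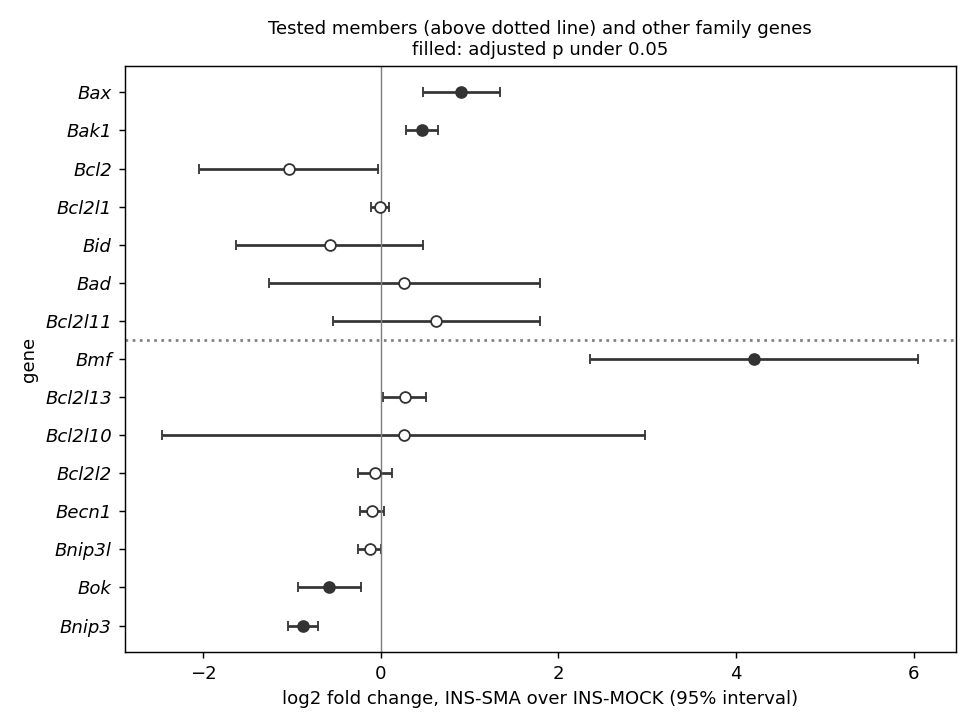
Log2 fold change of INS-SMA over INS-MOCK with its 95% interval (not adjusted for multiple tests) for the 7 tested members above the dotted line and 8 other family genes below it, with filled points for an edgeR adjusted p below 0.05. Bax and Bak1 lie right of 0, Bcl2l1 has the narrowest interval of the members, and Bmf lies farthest right.

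Among listed genes of the steps at and after the opening of the outer membrane, more were called lower than higher. They include Vdac1, Vdac2 and Vdac3, channel genes of that membrane, all called lower (log2 fold changes -1.75, -0.99 and -0.72). The counts and median therefore do not describe the later steps alone. Of 20 listed, all were tested, and 5 were called higher and 11 lower in edgeR's test, against 28.1% and 27.0% of all tested genes. The count of lower genes was 10 to 11 under the other settings. The median log2 fold change of the 20 was -0.63, against 0.03 over all tested genes. Among listed genes of intermembrane space proteins that are released, Cycs, Diablo, Aifm1 and Endog were called lower, and only Htra2 was called higher. Aifm1 and Endog had log2 fold changes of -1.19 and -0.86 (edgeR adjusted p = 6.71e-05 and 0.0044). Cycs (cytochrome c) was at 89.9 ± 5.89 CPM in INS-SMA and 291.7 ± 4.25 CPM in INS-MOCK (log2 fold change -1.70, edgeR adjusted p = 1.12e-05), and Diablo, whose protein blocks caspase inhibitors, had a log2 fold change of -1.26. Htra2, a released protease gene, was higher, at 57.9 ± 2.46 CPM in INS-SMA and 32.5 ± 1.14 CPM in INS-MOCK (log2 fold change 0.84, edgeR adjusted p = 0.000152). Vdac1, which encodes a channel of the outer membrane, fell by 1.75 on the log2 scale (edgeR adjusted p = 5.32e-06). Apaf1, whose protein assembles the caspase-9 platform, rose by 0.43. Birc3, a gene of the inhibitor of apoptosis family, was at 113.6 ± 2.26 CPM in INS-SMA and 3.49 ± 1.09 CPM in INS-MOCK (log2 fold change 5.02, edgeR adjusted p = 3.31e-05). Birc2 rose by 0.95 (edgeR adjusted p = 5.61e-05), while Xiap did not pass (log2 fold change 0.46, edgeR adjusted p = 0.0582). Birc5 (survivin) fell by 1.94.

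Of 10 listed genes of death receptors, their signalling and the caspase-8 step before Bid, 9 had named rows and 6 were tested. Of these, 2 were called higher and 1 lower in edgeR's test, against 28.1% and 27.0% of all tested genes. The median log2 fold change of the 6 was -0.20. The groups did not overlap in 3 of the 6, against 65.3% of all tested genes. Fas, a death receptor gene, was at 83.7 ± 4.08 CPM in INS-SMA and 4.67 ± 0.43 CPM in INS-MOCK (log2 fold change 4.16, edgeR adjusted p = 5.04e-06). Traf2, whose protein relays TNF receptor signals, was 3.22-fold higher (log2 fold change 1.69, edgeR adjusted p = 1.04e-05). The TNF receptor gene Tnfrsf1a fell by 0.65 (edgeR adjusted p = 0.000434). Casp8, with 4, 22 and 27 counts in INS-SMA and 20, 26 and 29 in INS-MOCK, did not pass. Tnfsf10, the gene of the death ligand TRAIL, was below the filter with 0, 364 and 858 counts in INS-SMA and 0 in each INS-MOCK library.

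Of 19 regulators of the members' transcription or protein turnover, 18 were tested, and 11 were called higher and 1 lower in edgeR's test, against 28.1% and 27.0% of all tested genes. Their median log2 fold change was 0.78, against 0.03 over all tested genes. The stress factor genes Ddit3 (CHOP) and Atf4 rose by 1.78 and 1.20 (edgeR adjusted p = 1.23e-05 and 1.87e-05). The ubiquitin ligase gene Mdm2 rose by 1.96, the interferon factor gene Irf1 by 3.50, and Fbxw7, whose protein marks Mcl-1 for degradation, by 0.83. Ywhaz, a gene of the 14-3-3 proteins that hold phosphorylated Bad in the cytosol, fell by 0.82 (edgeR adjusted p = 1.66e-05). Akt1, the kinase gene upstream of that phosphorylation, varied within INS-SMA (86.1, 22.7 and 245.3 CPM, against 320.4, 330.7 and 330.6 CPM in INS-MOCK) and did not pass (log2 fold change -1.47, edgeR adjusted p = 0.18).

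**Figure D4:**
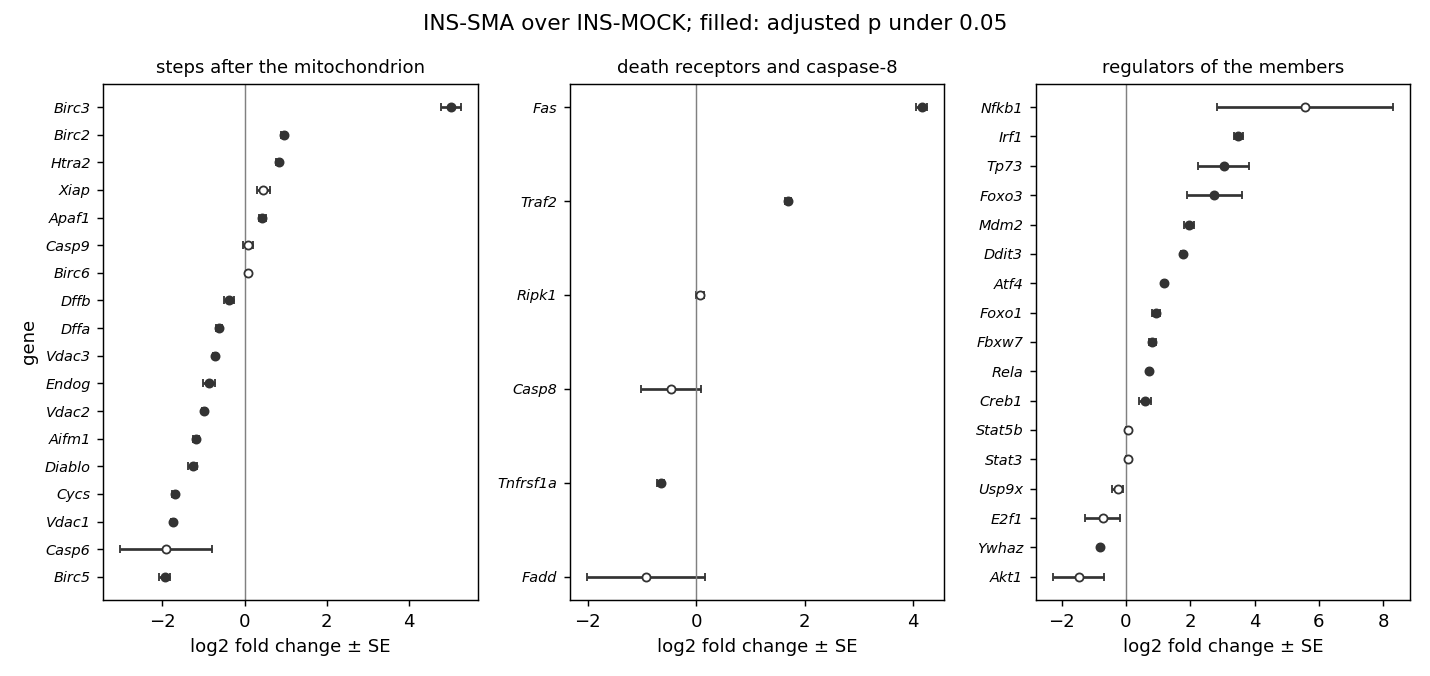
Log2 fold change ± SE of INS-SMA over INS-MOCK for tested genes of the steps after the mitochondrion, the death receptor list and the regulators. Not every gene of a list is drawn, and filled points mark an edgeR adjusted p below 0.05. Most filled points lie left of 0 in the first panel and right of 0 in the last, with Birc3 and Fas far to the right.

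Over the 6 libraries, the 3 genes with a mean of at least 5 CPM whose centred log2 CPM profile lay nearest to that of Bax, the member with the largest called change, were Etv3 (Euclidean distance 0.21), Ccdc51 (0.26) and Siah2 (0.26), out of 9355 genes compared. Etv3 was at 58.9 ± 3.54 CPM in INS-SMA and 31.9 ± 10.4 CPM in INS-MOCK, with a log2 fold change of 0.89 (edgeR adjusted p = 0.0214).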

How the data were processed

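The authors deposited 1 table of raw counts per transcript row, 1 column per library. The tools named per the submitters' processing notes are HISAT, HISAT2 and DESeq2, and the builds hg19 and rn6, without roles. The sources used here give no counting program, strand setting or annotation. Coordinates of genes are those of the deposited table. Of 101905 rows, 35604 name a gene. The other 66301 rows name none, carry no coordinates and made up 32.7% to 36.7% of each library. Neither tests nor library sizes include them, so a member's reads may be missing from its value.

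Counts were summed per gene (21553 genes), filtered with filterByExpr (13363 kept), scaled with TMM factors and compared with edgeR 4.0.16 (R 4.3.3) by glmQLFit and glmQLFTest, in a model of group alone. Benjamini-Hochberg adjustment covered all tested genes. The SE is the log2 fold change divided by the square root of F, and 95% intervals use the t quantile of the same fit and are not adjusted. DESeq2 1.42.0 served as an alternative. The edgeR script was tested on simulated data. P-values measure the spread between these cultures. Same-numbered libraries did not deviate together (correlations -0.03 to -0.01), so numbers were not treated as pairs.

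The members and lists were chosen with earlier results of these data known. Named are all members, the 2 members of each list with the smallest adjusted p in each direction, ACTA2, and the 3 profiles nearest to the member with the largest called change. Other genes named were chosen after their values were seen. The counts and medians of the lists include a few genes not reported here. Motifs were also chosen then and searched in RefSeq promoters (GRCr8).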

Additional observations from a re-analysis of the deposited data

Results flagged for a closer look

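Rows that name no gene took 35.8%, 36.3% and 36.7% of all counts in the INS-SMA libraries, against 33.0%, 32.8% and 32.7% in the INS-MOCK libraries. They are outside every comparison here, and the lowest INS-SMA library lay above the highest INS-MOCK library. How many of these counts belong to Mcl1, Bbc3 or another BCL2 family gene was not tested.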

How the results depend on the processing

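Bax and Bak1 kept their call and direction under all 16 other settings, with log2 fold changes of 0.81 to 1.67 and 0.41 to 0.81. The count of members called lower was 1 with DESeq2, through Bcl2 (log2 fold change -1.01), and 0 to 1 with 1 library left out, where Bcl2 ranged from -1.50 to -0.74. Bcl2l1, near 0 and called nowhere, changed sign to 0.0160 with DESeq2, to 0.0167 with its size factors in edgeR, to 0.0839 without normalization factors, to 0.000345 with the strict filter and to 0.26 in its most abundant row. It ranged from -0.0354 to 0.0149 with 1 library left out. In the same fits Bad ranged from -0.28 to 0.70 and Bcl2l11 from -0.10 to 0.90, both negative without INS-SMA replicate 2. Other family genes called higher numbered 2 with DESeq2, with its size factors, without normalization factors, and with no or the strict low-count filter. With 1 library left out, 1 (without INS-SMA replicate 2) to 4 (without INS-SMA replicate 3) of them were called lower, and 1 to 2 of the regulators, the higher count again without INS-SMA replicate 3. Regulators called higher numbered 8 to 10 in those fits, against 11 in the main fit. They numbered 9 with the replicate block and 12 with DESeq2 or without normalization factors. No normalization factors moved the median of all genes by 0.09, the largest shift among the scalings tried. Counting unnamed rows in library sizes left the counts of calls as they were. TMM factors from the named rows offset that change, so this setting could not show whether the unnamed rows matter.

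The replicate block (replicate number as a term) kept Bax (0.93, adjusted p = 0.0228) and Bak1 (0.47, 0.0126), left the other tested members uncalled, and called 3138 genes higher and 3156 lower. It changed no call of a member. Adding unnamed rows that overlap a member's locus was not run, since those rows carry no coordinates. Pmaip1 had too few counts to be tested, and whether depth or the spread between cultures limits the other members was not tested.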
